A study of Mus musculus with 18 samples.

Results

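The cytosolic ribosomal protein genes are the protein-coding genes whose symbol is Rpl or Rps with a number, together with Rplp0, Rplp1, Rplp2 and Rpsa, and without pseudogenes and Rps6k kinases. This rule found 86 of the 38243 genes counted, of which 52 carry the Rpl and 34 the Rps prefix. Of the 86, 77 encode core proteins of the ribosome, 7 are paralogs of a core gene (Rpl3l, Rpl10l, Rpl22l1, Rpl36al, Rpl39l, Rps27l and Rps27rt), and Rps19bp1 and Rpl7l1 are named after a ribosomal protein without being a subunit of the mature ribosome. Rpl15 is described against the rest of the family. Fau and Rack1, which also supply ribosomal proteins, lie outside the rule by their names and are given with the other translation genes.

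RNA was measured in 18 libraries from 6 female C57BL/6 mouse embryos at embryonic day 16.5. Mandibular bone, Meckel's cartilage (MC) and mandibular condylar cartilage (CC) were each dissected from frozen sections by laser capture, 1 library per tissue and embryo, without pooling. The embryos were 3 Fgfr2+/S252W mice, which carry the Apert syndrome mutation of the fibroblast growth factor receptor FGFR2 on 1 allele in every cell, and 3 Fgfr2+/+ littermates without it, so each of the 6 groups had 3 libraries (n = 3). Libraries are named by genotype, tissue and replicate number. From the labels, libraries of 1 genotype with equal numbers were taken to come from 1 embryo.

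A cytosolic ribosome joins a small subunit, which holds the messenger RNA, to a large subunit, which forms the peptide bonds. The genes are transcribed in every cell, and their messenger RNAs begin with a run of pyrimidines, the 5′ terminal oligopyrimidine tract, through which mTOR signaling controls their translation. Loss of 1 copy of several of them causes Diamond-Blackfan anemia, in which erythroid failure can occur with craniofacial and thumb defects, and mutations of others alter the skeleton or the coat color of mice.

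The sequence at the start site is shown for the members on which the results turn, since the pyrimidine run is a feature the rule did not use. RefSeq promoters on GRCm38.p6 matched 66 of the 86 members by symbol. Each window of 50 bases runs from 35 bases before to 15 bases after the RefSeq start, on the strand of the gene, and capitals mark the longest unbroken run of C and T found between 10 bases before and 15 bases after the start. Rpl15 (chr14:18270972-18271021, minus strand) had a run of 17 bases. Rpl7a (chr2:26910772-26910821, plus strand) also had 17 within that stretch, but its run goes on upstream to 21 bases in all. The run was of 13 in Rps10 (chr17:27635230-27635279, minus strand), 9 in Rps27 (chr3:90213634-90213683, minus strand), 8 in Rpl39 (chrX:37085208-37085257, minus strand), 5 in Rps7 (chr12:28635939-28635988, minus strand), 4 in Rps25 (chr9:44407679-44407728, plus strand) and 4 in Rpl36al (chr12:69184053-69184102, minus strand). In Rpl13 (chr8:123102315-123102364, plus strand) it was 4 within that stretch and 10 in all, since it also goes on upstream.
Rpl15: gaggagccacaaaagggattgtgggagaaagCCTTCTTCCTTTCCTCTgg
Rps7: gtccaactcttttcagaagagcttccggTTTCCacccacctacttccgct
Rps27: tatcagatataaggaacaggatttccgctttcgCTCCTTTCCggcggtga
Rpl13: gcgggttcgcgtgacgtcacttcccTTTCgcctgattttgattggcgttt
Rpl7a: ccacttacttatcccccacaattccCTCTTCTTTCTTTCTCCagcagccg
Rps10: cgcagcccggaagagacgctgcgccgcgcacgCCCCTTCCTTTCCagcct
Rps25: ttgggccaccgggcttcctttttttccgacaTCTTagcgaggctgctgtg
Rpl39: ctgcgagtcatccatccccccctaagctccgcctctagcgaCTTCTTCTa
Rpl36al: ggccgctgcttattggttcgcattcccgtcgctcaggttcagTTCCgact

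A run of 6 or more C or T at this place was found in 36 of the 66 matched members (54.5%) and in 27.6% of the 27025 genes of the promoter table. Over the whole 300 bases of each promoter, 250 before and 50 after the start, and on both strands, CGGAAG, the core letters of an ETS family site, stood in 44 of 66 members (66.7%) against 18.8% of all promoters. The letters TATAAA, those of a TATA box, stood in 7 members (10.6%) against 15.7%. Read on the other strand, both hold C or T letters that can fall in a pyrimidine run, so the motifs can overlap, and a match is a description of the window only. Rpl15 and Rps7, the members with the smallest p-values between genotypes in bone, had runs of 17 and 5 bases.

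Levels were compared between genes as FPKM, which scales fragments by exon length and library total. Among the highest averages over the 18 libraries, Rps4x, a small-subunit protein encoded on the X chromosome, stood at 539 FPKM, Rpl4 at 483, Rps27 at 380 and Rpl41 at 369. At the other end Rpl7l1 was at 5.58 and Rps19bp1, which encodes a partner of RPS19, at 5.10. Rpl15, a large-subunit protein that contacts the ribosomal RNA, was at 21.4 FPKM and ranked 77 among the 86. The paralogs Rpl3l, known from striated muscle, and Rpl10l and Rpl39l, known from testis, did not pass the filter of more than 1 FPKM in at least 50% of libraries. Rpl10l had no count in any library, which allows at most 3 counts per library, Rpl3l had 0 to 4 counts and Rpl39l 0 to 26, the latter with none in the 6 MC libraries. The other 83 members entered the tests among 11469 genes, and 75 of them were in the top 10% of those genes by mean FPKM, with a median of 80.65 FPKM against 5.17 over all genes.

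**Figure D1:**
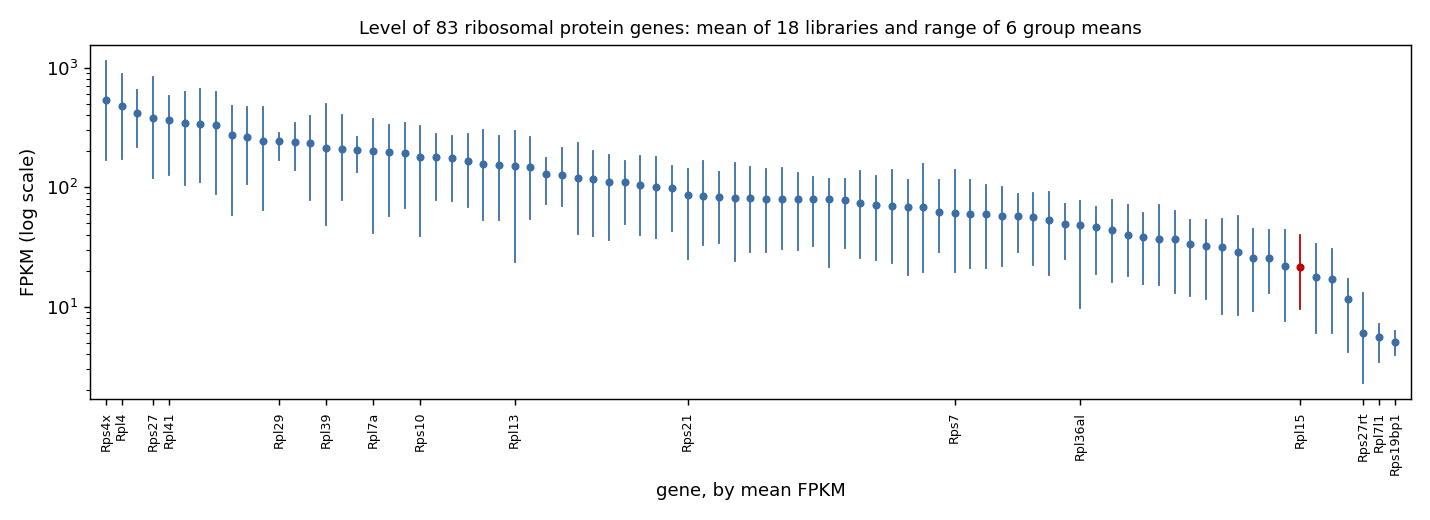
Mean FPKM over 18 libraries (points, log axis) of the 83 members that passed the filter, in descending order, with lines from the lowest to the highest of the 6 group means and names for some of the genes in the text. The levels run from 539 for Rps4x to 5.10 for Rps19bp1, with Rpl15 (red) at 21.4.

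The counted fragments limit how exactly some members are known. Fragments that mapped to several places or to exons of several genes were not counted, so members with near-identical copies have uncertain levels. A pseudogene of the same name was annotated for 56 of the 83 members, Rpl15 among them with 4, and none for 27. Copies under other names were not counted in this split. The median level was 80.8 FPKM in the first set and 80.65 in the second. These are different genes, so the medians cannot show how many fragments a gene lost. Exons of 14 members share bases with another gene, for Rpl15 105 of 2397 exon bases with Nkiras1 on the opposite strand, and the counts did not use strand. Nkiras1 itself had 30 to 73 counts per bone library and a log2 fold change between genotypes in bone of -0.04 (SE 0.57), while Rpl15 had 183 to 1266 counts over the 18 libraries.

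Libraries held 8218548 to 15585778 counts, and no 2 libraries of a group agreed within sampling noise. The members took 1.33% to 1.76% of the counts in bone, 0.688% to 1.05% in CC and 0.285% to 0.733% in MC. At these depths counting error was small, with a 95% Wilson interval of 0.2815% to 0.2885% around the lowest share. Such intervals cover counting error only, since PCR reads are not independent molecules. Mitochondrial genes took 19.4% to 38.1% of a library and Gm42418, a gene that overlaps ribosomal RNA sequence, 5.59% to 9.33% in bone, 10.9% to 20.2% in CC and 24.1% to 39.4% in MC. In bone the Gm42418 share was 9.05%, 8.57% and 9.33% in Fgfr2+/+ and 5.59%, 5.94% and 6.49% in Fgfr2+/S252W libraries, without overlap. Without both, the members took 2.90%, 3.11% and 2.21% in the Fgfr2+/+ bone libraries, 2.46%, 2.43% and 1.90% in the Fgfr2+/S252W bone libraries, 1.32% to 1.60% in CC and 0.956% to 1.48% in MC. Bone thus stayed above both cartilages in every library by either measure, and the third Fgfr2+/+ bone library lay within the range of the Fgfr2+/S252W bone libraries. That library also differed in mitochondrial share, 20.4% against 36.0% and 34.8% in the other Fgfr2+/+ bone libraries and 23.4% to 23.6% in Fgfr2+/S252W bone, and the member median, Rpl15 and the counts of members called in bone are given with and without it.

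**Figure D2:**
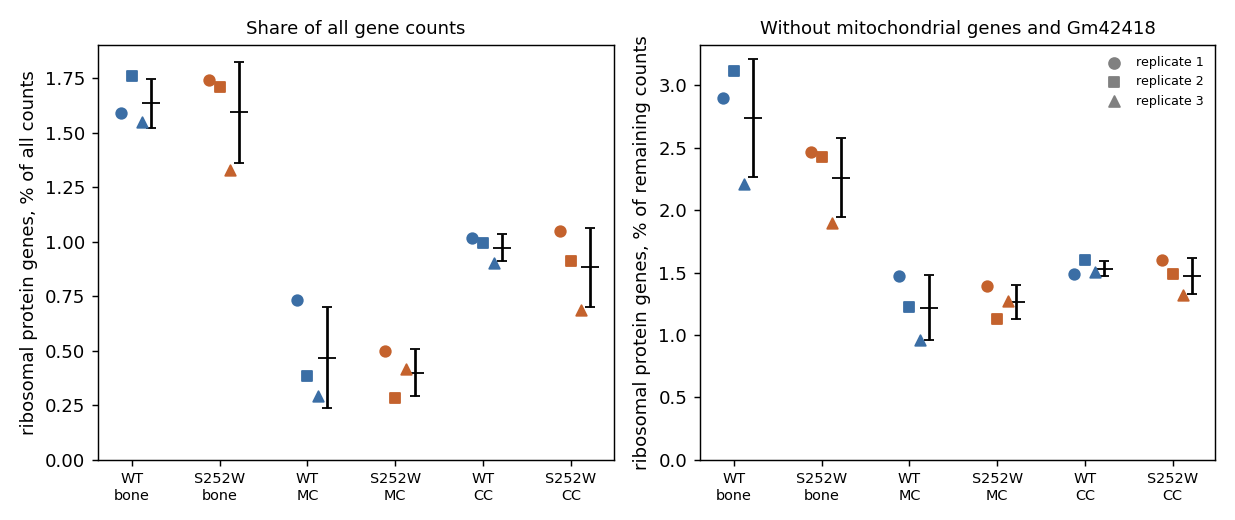
Share of gene counts on the 86 members in each library, of all counts (left) and without mitochondrial genes and Gm42418 (right). Points are libraries, shapes replicate numbers, bars mean ± SD of 3 libraries, blue Fgfr2+/+ and orange Fgfr2+/S252W. The bone libraries lie above those of both cartilages, and MC, at 0.285% to 0.733% of all counts, overlaps CC, at 0.688% to 1.05%.

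The labelled tissues were checked by summed CPM (counts scaled to a common library size with TMM factors) of marker lists. The 10 osteoblast markers summed to 17250 to 35150 CPM in bone to 5076 to 19880 in CC and to 1615 to 4035 in MC, so that the highest CC library lay above the lowest bone library. The 10 cartilage markers summed to 32460 to 40010 in CC, 230.1 to 590.6 in bone and only 443.6 to 10170 in MC. In MC Col2a1, the main cartilage collagen, was thus present, at a mean of 1727 CPM in Fgfr2+/+ libraries, but far below its 21860 in CC. Less RNA of a gene and fewer cells of the type that uses it cannot be told apart in such bulk samples.

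In Fgfr2+/+ embryos most ribosomal protein genes were higher in bone than in either cartilage, while between CC and MC fewer than 50% passed the test. Of the 83 members, 64 were higher in bone than in MC at an adjusted p below 0.05 (limma, Benjamini-Hochberg over 11469 genes), where 18.1% of all genes were, and 1 was lower, where 15.9% were. The median log2 fold change was 1.06 over the members and 0.02 over all genes. Against CC, 51 were higher (all genes 19.4%) and 0 lower (18%), with a median of 0.59 against 0.0047. Without Fgfr2+/+ bone replicate 3, 66 members were higher than in MC and 58 higher than in CC. When 1 library was left out, 56 to 67 members passed against MC in either direction, fewest without Fgfr2+/+ MC replicate 3. Against CC 39 to 58 passed, with 39, below 50% of the 83, without Fgfr2+/+ CC replicate 1. Shares over all genes in these fits are not given, so the counts show only how far the calls moved. Of CC against MC, 34 were higher (22.9%) and 3 lower (22.1%), with a median of 0.45 against 0.02. The number lower in bone than in CC at an unadjusted p below 0.05 was also 0.

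Rpl13, a large-subunit protein, showed the widest difference between bone and MC in Fgfr2+/+ embryos. It stood at 131, 185 and 151 CPM in Fgfr2+/+ bone and at 22.6, 39.2 and 18.6 in MC, so that the groups did not overlap, and its log2 fold change was 2.62 (SE 0.28, adjusted p 1.63e-06 by limma). Rpl7a, also of the large subunit, followed at 2.23 (SE 0.19), Rpl39, at the exit of the peptide tunnel, at 2.22 (SE 0.29) and Rps25, a small-subunit protein used by some viral entry sites, at 2.21 (SE 0.21). Rps10, of the small subunit, stood at 138, 188 and 165 CPM in bone against 38.6, 36.5 and 35.2 in MC, and its limma adjusted p of 1.06e-07 was the smallest of the members. Rpl29 was the member that was lower in bone, at 178, 172 and 168 CPM against 249, 239 and 221 in MC, a log2 fold change of -0.46 (SE 0.15, adjusted p 0.0202 by limma). With the lowest significant increases stood Rps3 at 0.55, Rps2 at 0.60 and Rpl35 at 0.68. In Fgfr2+/S252W embryos Rpl13 stood at 174, 176 and 131 CPM in bone and at 90.7, 45.0 and 58.1 in MC. Rpl13, Rpl7a and Rps10 were also the highest between genotypes in MC, a comparison that shares the Fgfr2+/+ MC libraries with this one.

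Rps7 had the highest value between bone and CC. It stood at 88.8, 151 and 79.0 CPM in Fgfr2+/+ bone and at 48.6, 48.5 and 38.6 in CC, without overlap, a log2 fold change of 1.17 (SE 0.20, adjusted p 8.77e-05 by limma). Rpl39 followed at 1.10 (SE 0.25), Rpl17 at 1.10 (SE 0.21) and Rpl15 at 1.07 (SE 0.18, adjusted p 9.20e-05 by limma). Among the smallest increases past the threshold were those of Rpl8 at 0.40, Rpl21 at 0.47 and Rpl3 at 0.47.

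Between CC and MC the paralog Rpl36al led, with 72.6, 100.4 and 74.3 CPM in CC and 26.4, 17.8 and 19.5 in MC, a log2 fold change of 1.90 (SE 0.31, adjusted p 5.80e-05 by limma). Rpl13 at 1.80, Rps25 at 1.66 and Rpl7a at 1.55 followed, each also among the highest between bone and MC, which share the MC libraries with this comparison. Lower in CC were Rpl28 at -0.70 (SE 0.24), Rps12 at -0.62 (SE 0.24) and Rpl29 at -0.40 (SE 0.15). These lower calls changed with single libraries. The 3 fell to 0 without replicate 1 of Fgfr2+/+ MC, without replicate 1 of Fgfr2+/+ CC and with no filter on low values, and to 1 without replicate 2 of Fgfr2+/+ MC, CC or Fgfr2+/S252W MC. The lower call of Rpl29 in bone against MC was likewise lost without replicate 1 or 2 of Fgfr2+/+ MC or replicate 2 of Fgfr2+/+ bone.

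The same comparisons were made in the Fgfr2+/S252W embryos, which share no library with the Fgfr2+/+ embryos. Both came from 1 fit, with a spread per gene shared by all 6 groups, so overlapping calls are not independent. Between bone and MC 58 members were higher (all genes 19.5%) and 1 lower (18.8%), with a median of 0.87, and 55 of them were among the 64 of the Fgfr2+/+ embryos, 94.8% of the former and 85.9% of the latter. Between bone and CC 27 were higher (16.6%), with a median of 0.38, and 26 of these were among the 51 of the Fgfr2+/+ embryos, 51.0% of the 51. Between CC and MC 26 were higher (21.3%), with a median of 0.48, and 22 were shared, 64.7% of the 34 in Fgfr2+/+ embryos. Over all genes the shared part of the Fgfr2+/+ calls was 71.2%, 72.8% and 73.1% in the same order. A difference in the count of calls between genotypes is not a test of a difference, and the tests of the difference itself follow with Rpl15.

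**Figure D3:**
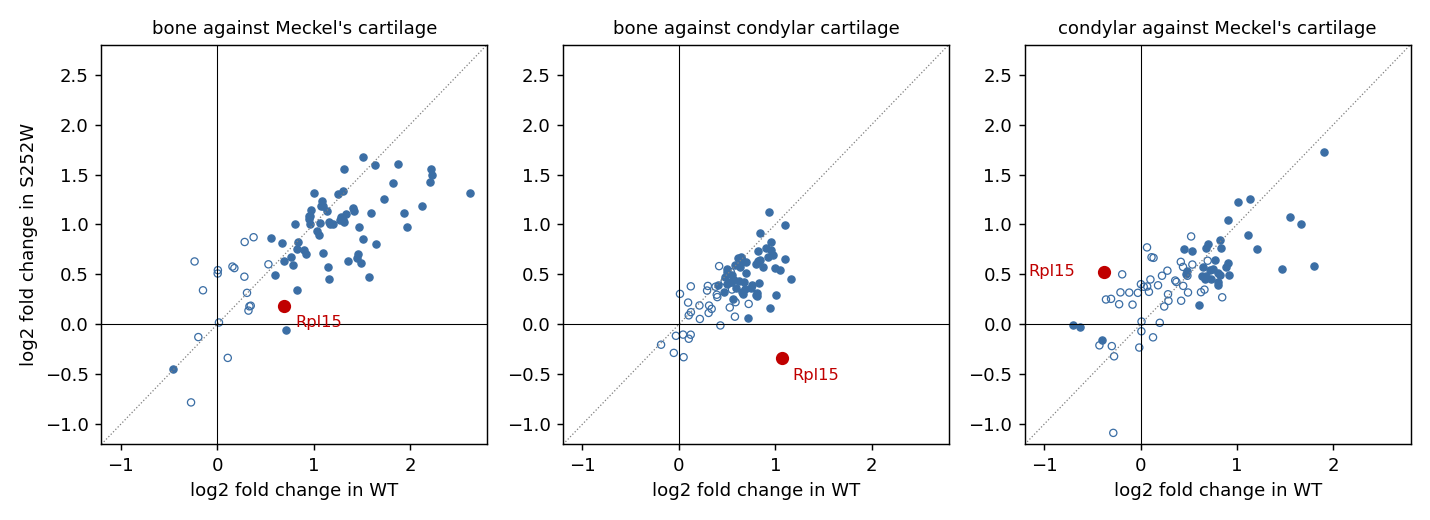
Log2 fold changes of 83 members between tissues in Fgfr2+/+ embryos (horizontal) and in Fgfr2+/S252W embryos (vertical), filled where the adjusted p in Fgfr2+/+ embryos was below 0.05, with the line of equal values dotted. Most members lie above 0 on both axes, and Rpl15 (red) lies at 1.07 and -0.34 for bone against CC.

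The tissue differences were also read by subunit. Of the 46 core large-subunit genes 39 were higher in Fgfr2+/+ bone than in MC (all genes 18.1%), with a median log2 fold change of 1.08, and of the 31 core small-subunit genes 21, with a median of 0.95. Rplp0, Rplp1 and Rplp2, the proteins of the stalk that binds translation factors, were all higher in bone than in MC and in CC than in MC (22.9%), with medians of 1.16 and 0.67. The 4 paralogs tested were all higher in bone than in MC, with values of 1.06 to 1.94. Rps19bp1 and Rpl7l1 passed in none of the 3 tissue comparisons, with values between -0.30 and 0.10. The Gm42418 share, which was highest in MC, moved with these differences between tissues, and its part in them was not tested. A fit without mitochondrial genes and Gm42418 tested 84 members among 13097 genes. The counts of members called in these 3 comparisons stayed within 1.5 times those given. TMM factors already scale for such shares, so that fit cannot decide the part of Gm42418.

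Between genotypes in bone 1 member passed the test, and most estimates of the others lay below 0. At an adjusted p below 0.05 Rpl15 was lower (limma adjusted p 0.0483), 1 of 83, where 0.0523% of all genes were called lower. Of the 83 members 73 had a log2 fold change below 0 (50.1% of all genes), and the median was -0.26 against -0.0007 over all genes. The members are short, with a median exon length of 878 bases against 2980 over all genes, and with a loess on gene length subtracted their median was -0.05, against 0.02 over all genes. It was -0.13 without Fgfr2+/S252W replicate 3 and -0.36 without Fgfr2+/+ replicate 3, the lowest and highest sizes when 1 library was left out. At an unadjusted p below 0.05, 26 members were lower (4.12% of all genes) and 0 higher (4%). The number at such a p was 14 without Fgfr2+/S252W replicate 3, 15 without Fgfr2+/+ replicate 1 or 2, and 39 without Fgfr2+/+ replicate 3. Shares over all genes in these fits are not given, so these numbers show only how far the count moved with 1 library. All 3 Fgfr2+/S252W libraries lay below all 3 Fgfr2+/+ libraries in 9 members (9.7% of all genes), so that for most members the ranges of the genotypes overlapped in bone.

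Rpl15 stood at 84.7, 83.6 and 60.0 CPM in Fgfr2+/+ bone and at 39.8, 44.8 and 36.7 in Fgfr2+/S252W bone. Each Fgfr2+/S252W library lay below each Fgfr2+/+ library, and the third Fgfr2+/+ library lay between its 2 replicates and the other genotype. The log2 fold change was -0.89 (SE 0.17, 95% interval -1.25 to -0.54), or 0.539-fold. Against the median of the other 82 members in the same library, Rpl15 stood on the log2 scale at -0.612, -0.613 and -0.669 in Fgfr2+/+ bone and at -1.339, -1.198 and -0.979 in Fgfr2+/S252W bone, again without overlap. The call was near its threshold. It was lost without any 1 of 13 of the 18 libraries, among them each bone library except Fgfr2+/+ replicate 3, with adjusted p-values of 0.00639 to 0.450 over the 18 fits and log2 fold changes of -1.06 to -0.80, and edgeR gave -0.91 with an adjusted p of 0.285.

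Rps7, a small-subunit protein mutated in some Diamond-Blackfan families, had the next smallest p in bone, at 88.8, 151 and 79.0 CPM in Fgfr2+/+ and 62.6, 58.3 and 51.9 in Fgfr2+/S252W libraries, a log2 fold change of -0.82 (SE 0.18, adjusted p 0.0984 by limma). The groups did not overlap, but the Fgfr2+/+ libraries differed widely among themselves. Below Rpl15 in log2 fold change were Rps27rt, a retrotransposed copy of Rps27 with 3 to 63 counts per library, at -1.06 (SE 0.37, adjusted p 0.420 by limma), and Rps27 itself at -0.91 (SE 0.26, adjusted p 0.265 by limma). Rps27 stood at 220.3, 207 and 88.6 CPM in Fgfr2+/+ bone and at 98.5, 99.3 and 60.6 in Fgfr2+/S252W bone, where the third Fgfr2+/+ library lay inside the range of the other genotype. The highest values were those of Rpl6 at 0.22, Rps4x at 0.17 and Rpl10 at 0.16, none past the threshold. The median was -0.19 over the 46 core large-subunit genes, -0.26 over the 31 core small-subunit genes, and -0.83 over the 4 paralogs tested, all 4 of them below 0.

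How many members passed in bone changed with the libraries in the fit and with the method. With all 18 libraries, DESeq2 called 2 members (18 of 11469 genes) and limma with sample quality weights 17, all lower (589 of 11469 genes). In a fit of the 6 bone libraries alone Rpl15 passed (-0.90, SE 0.16, limma adjusted p 0.0213) and no other member did, with Rps7 next at 0.0801 (all genes called lower 0.536%). Without that library, in a fit of 5 bone libraries chosen after seeing the data, 28 members passed, all lower, where 6.1% of all genes were called lower, and Rpl15 was at -1.08 (SE 0.12, adjusted p 0.000638 by limma). Markers of other cells differed between the genotypes in bone. Lyz2, of macrophages and other myeloid cells, passed at -1.47 (SE 0.28, limma adjusted p 0.0483), while the 7 macrophage markers summed to 108.3 to 133.4 CPM in Fgfr2+/+ and 121.4 to 147.5 in Fgfr2+/S252W bone, with 4 tested, 2 lower and 1 higher at an unadjusted p below 0.05. No tested marker of the lists that follow passed the adjusted threshold. The 8 erythroid markers, Hbb-bs and Hbb-bt the most abundant of them, summed to 1285 to 1533 CPM in Fgfr2+/+ and 324.1 to 618.2 in Fgfr2+/S252W bone, with 6 tested and 5 lower at an unadjusted limma p below 0.05. The 8 muscle markers summed to 52.9 to 369 against 1.95 to 55.2 CPM, with 4 tested and 4 lower at such a p. The 8 osteoclast markers summed to 920.8 to 1189 against 1719 to 2377 CPM, with 4 tested and 4 higher at such a p. In its own test of mandibular bone the paper reported Acp5, Ctsk and other osteoclast genes as significantly upregulated. It also reported more osteoclasts by TRAP stain and more Csf1r and Itgb3 signal in sections. The cartilage markers summed to 230.1 to 463.6 CPM in Fgfr2+/+ and 460.7 to 590.6 in Fgfr2+/S252W bone, nearly without overlap, with 9 tested and 1, Col2a1, higher at an unadjusted p below 0.05 (1.62, SE 0.73, limma adjusted p 0.599). No marker of these lists was at 0 in all libraries of a bone group, and the part of these cells in the ribosomal protein result was not tested. The Gm42418 share, given above, also separated the genotypes in bone. Without mitochondrial genes and Gm42418 Rpl15 stood at -0.87 (limma adjusted p 0.0505) and the median of the members at -0.23.

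**Figure D4:**
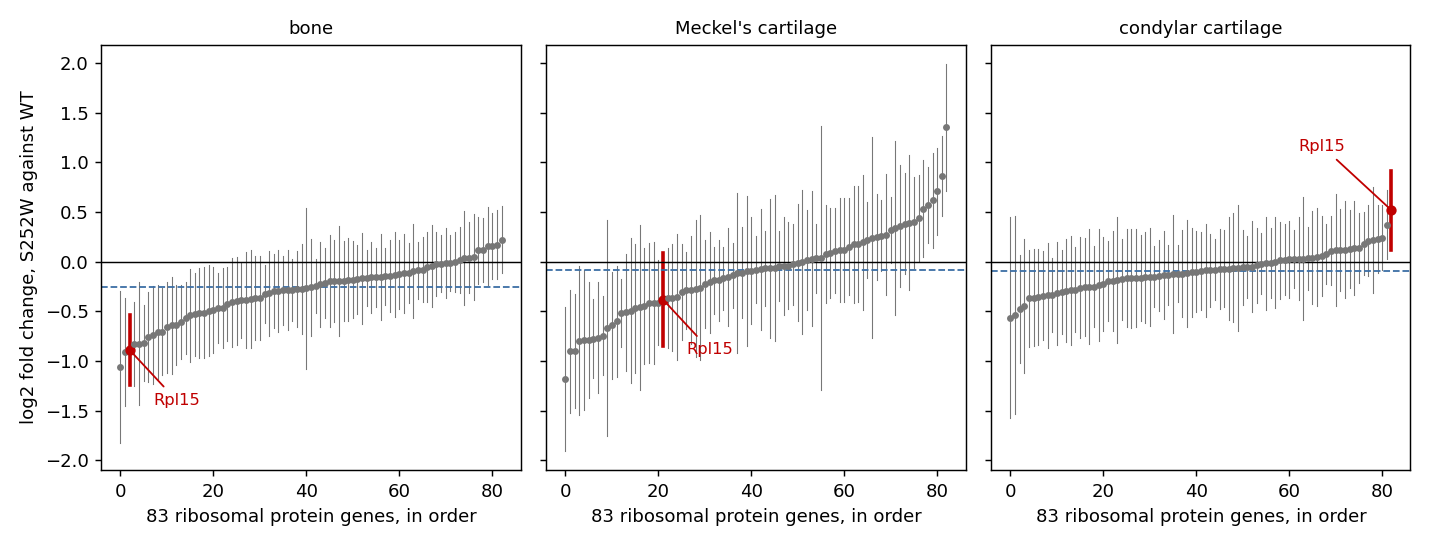
Log2 fold changes, Fgfr2+/S252W against Fgfr2+/+, of 83 members ordered within each tissue, with 95% intervals from limma, the member median dashed and Rpl15 in red. In bone 73 members lie below 0 and Rpl15 ranks 3 from the lowest, and in CC it is the highest at 0.52.

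In MC no member passed between genotypes (limma, all genes 0%), and the members spread in both directions. At an unadjusted p below 0.05, 12 were lower (7.25% of all genes) and 7 higher (8.1%), and 52 of 83 lay below 0 (47.9%), with a median of -0.08 against 0.03 over all genes. The member median was -0.17 to 0.03 when 1 library was left out, and above 0 without Fgfr2+/+ MC replicate 1. Of the other tools, edgeR called 3 members, 2 higher and 1 lower (all genes 0.785%), and DESeq2 9, 4 higher and 5 lower (3.69%). Highest were Rpl13 at 1.35 (SE 0.31, adjusted p 0.0894 by limma), Rps10 at 0.86 (SE 0.19, adjusted p 0.0894 by limma) and Rpl7a at 0.71 (SE 0.21). Rps10 stood at 38.6, 36.5 and 35.2 CPM in Fgfr2+/+ MC and at 76.0, 64.0 and 61.4 in Fgfr2+/S252W MC, and Rpl13 at 22.6, 39.2 and 18.6 against 90.7, 45.0 and 58.1. In both genes the groups did not overlap. The same Fgfr2+/+ MC libraries entered bone against MC, where Rpl13, Rps10 and Rpl7a were named too. Lowest were Rps21, of the small subunit, at -1.18 (SE 0.35), Rpl34 at -0.90 (SE 0.30) and Rps28, mutated in some Diamond-Blackfan families, at -0.90 (SE 0.27). Rps21 stood at 39.96, 35.8 and 28.5 CPM in Fgfr2+/+ MC and at 18.04, 12.8 and 14.9 in Fgfr2+/S252W MC, the reverse order of that in Rps10. Rpl15 was at -0.38 (SE 0.22, adjusted p 0.424 by limma), with overlapping groups. The cartilage markers summed to 443.6 to 3773 CPM in Fgfr2+/+ and to 2451 to 10170 in Fgfr2+/S252W MC. The 8 osteoclast markers summed to 89.4 to 256.7 against 64.0 to 70.5 CPM, with 4 tested and 4 lower at an unadjusted limma p below 0.05, and the 7 macrophage markers to 26.0 to 76.3 against 89.3 to 115.4 CPM, with 4 tested and 3 higher. Both lists separated the genotypes in MC without overlap, and the part of these cells and of cartilage in the differences of the members was not tested.

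In CC no member passed either (limma, all genes 0%), and edgeR and DESeq2 called none. At an unadjusted p below 0.05, 2 members were higher (1.56% of all genes) and 0 lower (1.5%), while 58 of 83 lay below 0 (51.3%), with a median of -0.10 against -0.01. With a loess on gene length subtracted the member median turned to 0.02, and it was -0.20 to -0.04 when 1 library was left out. The 2 were Rpl15, at 0.52 (SE 0.19, 95% interval 0.12 to 0.91, adjusted p 0.998 by limma), and Rpl10a, a large-subunit protein, at 0.37 (SE 0.16, adjusted p 0.998 by limma). Rpl10a stood at 49.2, 54.2 and 54.0 CPM in Fgfr2+/+ CC and at 61.3, 69.6 and 74.5 in Fgfr2+/S252W CC, without overlap. Rpl4 followed at 0.24, and lowest were Rps19bp1 at -0.56, Rps27rt at -0.54 and Rps21 at -0.48. The muscle markers summed to 4.36 to 167.7 CPM in Fgfr2+/+ and 2.44 to 5.42 in Fgfr2+/S252W CC, and their part was not tested.

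The estimate of Rpl15 between genotypes was below 0 in bone and above 0 in CC, and it passed the threshold in bone. In CC it stood at 32.2, 31.65 and 45.0 CPM in Fgfr2+/+ and at 51.4, 54.5 and 46.7 in Fgfr2+/S252W libraries, so that all 3 of the latter were higher. The difference of the genotype effects, bone minus CC, was -1.41 (SE 0.26, 95% interval -1.94 to -0.87). It had the smallest p of all 11469 genes in that comparison, but its limma adjusted p was 0.242. No member passed in any of the 3 differences of genotype effects (limma, all genes 0% for bone minus CC, 0.0523% for bone minus MC and 0% for CC minus MC). At an unadjusted p below 0.05 there were 4 members (all genes 3%), 15 members (10.9%) and 6 members (9.51%) in these comparisons, and DESeq2 called 1 member in each (0.0436%, 0.82% and 0.837% of all genes). The difference for CC minus MC was 0.90 (SE 0.29, adjusted p 0.333 by limma) and that for bone minus MC -0.51 (SE 0.28, adjusted p 0.519 by limma). Against the median of the other members, Rpl15 in CC stood at -1.071, -1.398 and -0.751 in Fgfr2+/+ and at -0.754, -0.317 and -0.485 in Fgfr2+/S252W libraries, where the ranges overlapped at their edge.

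Over the 6 groups the mean level of Rpl15 was 76.1 ± 14.0 CPM (SD, n = 3) in Fgfr2+/+ bone, 50.9 ± 3.93 in Fgfr2+/S252W CC, 45.9 ± 6.33 in Fgfr2+/+ MC, 40.4 ± 4.09 in Fgfr2+/S252W bone, 36.3 ± 5.88 in Fgfr2+/S252W MC and 36.3 ± 7.58 in Fgfr2+/+ CC. From the second to the last of these, neighbours in the order differed by less than their SDs added. Bone against CC was thus 1.07 in Fgfr2+/+ embryos and -0.34 (SE 0.18, adjusted p 0.169 by limma) in Fgfr2+/S252W embryos, where it was the lowest of the 83 members. Bone against MC was 0.69 (SE 0.19, adjusted p 0.00829 by limma) and 0.19 (SE 0.21, adjusted p 0.509 by limma) in the same order.

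**Figure D5:**
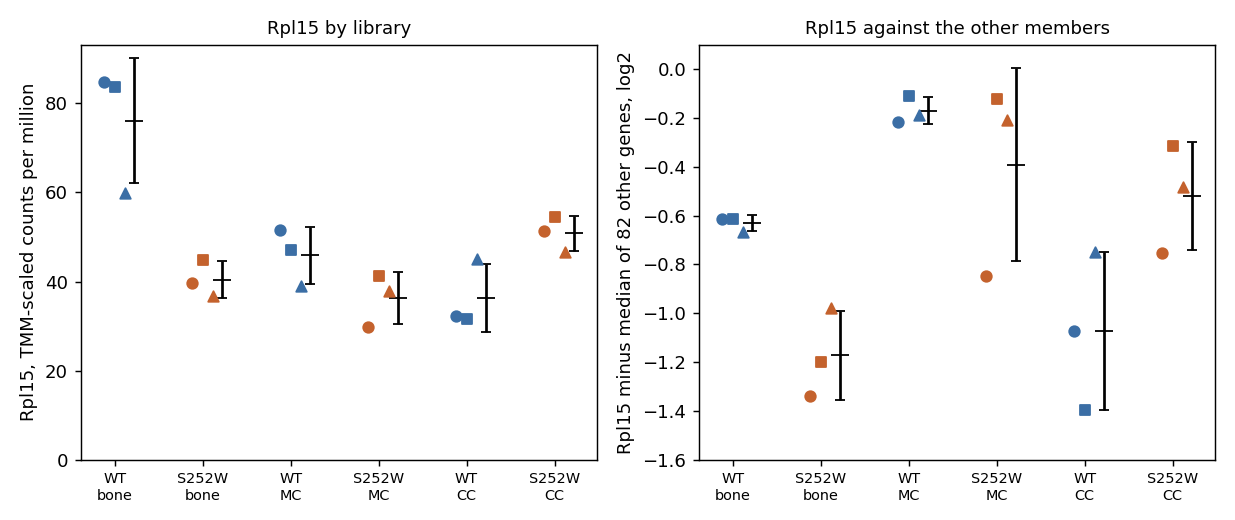
Rpl15 in TMM-scaled CPM in each library (left) and its log2 level minus the median of the 82 other members of that library (right). Points are libraries, shapes replicate numbers, bars mean ± SD, blue Fgfr2+/+ and orange Fgfr2+/S252W. Fgfr2+/S252W bone (36.7 to 44.8) lies below Fgfr2+/+ bone (60.0 to 84.7), and in CC Fgfr2+/S252W (46.7 to 54.5) lies above Fgfr2+/+ (31.65 to 45.0).

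Across the 18 libraries, which share tissue, embryo and depth differences, the log2 CPM of Rpl15 had a Pearson r of 0.594 with the mean of the other members. The median member had 0.858, and 16 members had a lower r than Rpl15. Rpl29 had the lowest, at -0.592, and Rpl39 the highest, at 0.983. The genes nearest to Rpl15 were Fundc2 (0.818), Nab1 (0.793), Sept2 (0.778), Rps19 (0.775) and Atf1 (0.773), so 1 of the 5 was a member. The 5 genes nearest to the mean of the members, with 0.963 to 0.984, were all members, Rpl39 and Rplp0 first, but that mean holds these genes themselves, which favors members.

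Members tied to disease or to mouse mutants were read as lists. All 18 genes of Diamond-Blackfan anemia on the list passed the filter. In bone all 18 lay below 0 between genotypes, as did 73 of the 83 members and 50.1% of all genes. Their median was -0.39 against -0.26 over all members, while 1, Rpl15, passed (0.0523% of all genes lower). In MC 12 (47.9%) and in CC 13 (51.3%) of the 18 lay below 0, and none passed. Between Fgfr2+/+ bone and MC 14 of the 18 were higher (18.1%), with Rps10 at 2.13. The list for mouse mutants held Rpl38, Rpl24, Rps20, Rps19, Rps7 and Rpl27a, with skeletal or coat color mutants. It also held Rpsa, for which no such mutant is claimed here. Of these 7 members, 6 lay below 0 in bone (50.1%) and none passed, and 4 were higher in Fgfr2+/+ bone than in MC (18.1%).

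Other genes of the pathway were read as 3 lists, of which no gene passed between genotypes. Of 32 genes of ribosome assembly, such as the nucleolar proteins Npm1 and Ncl, 2 were higher and 1 lower in Fgfr2+/+ bone than in MC, where 18.1% and 15.9% of all genes were, with Npm1 at 1.40 and Polr1b, a subunit of RNA polymerase I, at -1.32. None of the 32 passed between genotypes in any tissue, and the median in bone was 0.03. Of 22 translation factors and other genes with a pyrimidine tract, 14 were higher in Fgfr2+/+ bone than in MC (all genes 18.1%) and 10 higher than in CC (19.4%), and none was lower. Rack1, a protein of the small subunit, was at 1.51 (SE 0.16) against MC and 0.66 (SE 0.15) against CC. In that list none passed between genotypes, and in bone Tpt1 was at -0.57 (SE 0.22) and Fau, which encodes the small-subunit protein RPS30, at -0.52 (SE 0.20, adjusted p 0.488 by limma). Of 19 genes of translation control, among them mTOR and its partners, none passed between genotypes, and 3 were higher (18.1% of all genes) and 6 lower (15.9%) in Fgfr2+/+ bone than in MC, with the cell cycle inhibitor Cdkn1a at 2.49, the translation repressor Eif4ebp1 at 1.40 and Tsc1 at -1.03.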

How the data were processed

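RNA was amplified and sequenced from both ends by the authors, who aligned reads with STAR to mm10 and ran featureCounts 1.5.0-p1 on Ensembl 75 genes without transcripts subject to nonsense-mediated decay. The deposited values are counts without normalization and without strand. Gene symbols and biotypes came from reference tables of the same build. The 11469 genes that exceeded 1 FPKM in 50% or more of the libraries were analyzed in R 4.3.3 with TMM factors, voom and limma 3.58.1. The study's methods describe these steps with a design of all sample groups. The fit here had 1 mean for each of 6 groups, CC included, which those methods do not mention. CPM are scaled by TMM factors and FPKM are not. Adjusted p-values are Benjamini-Hochberg over all genes tested in a comparison, with a threshold of 0.05. Library precision is set by 8218548 to 15585778 counts. Controls were littermates of mutants per the study's methods, which embryos shared a litter is not given in the sources used here, and p-values measure the spread between embryos. The alternatives were edgeR 4.0.16, DESeq2 1.42.0, other filters, scalings, weights and libraries, embryo and replicate blocks, and leaving out 1 library at a time. Steps were tested on simulated counts. Named genes were Rpl15, members past the threshold between genotypes, the highest and lowest members of each comparison and of the mean FPKM, and the genes nearest to Rpl15 or to the family in Pearson r. Embryo deviations correlated across tissues by -0.081 to 0.111, so tissues of 1 embryo, paired by the labels, entered unblocked, and a block by embryo moved no count of members called by over 1.5 times. The members and lists were chosen with earlier results of these data known. A few genes named by this rule are not reported here.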

Additional observations from a re-analysis of the deposited data

Results flagged for a closer look

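The genotype estimate of Rpl15 was below 0 in bone and above 0 in CC, with bone alone past the threshold, and the difference of the effects, bone minus CC, was -1.41 on the log2 scale with a limma p of 2.11e-05 before adjustment and an adjusted p of 0.242. All 3 Fgfr2+/S252W libraries were below all 3 Fgfr2+/+ libraries in bone (36.7 to 44.8 against 60.0 to 84.7 CPM) and above them in CC (46.7 to 54.5 against 31.65 to 45.0 CPM). With the embryo as a fixed block the difference was -1.42 (limma adjusted p 0.387), and with the embryo as a random block -1.41 (limma adjusted p 0.275).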

How the results depend on the processing

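The direction of Rpl15 in bone held under every alternative that was run. Its log2 fold change was -0.91 with edgeR (adjusted p 0.285), -0.87 without mitochondrial genes and Gm42418 (limma adjusted p 0.0505), -0.90 with the replicate block (0.0570) and -0.84 with a loess on gene length (0.0723), none past the threshold, and -1.06 to -0.80 when 1 library was left out. The count of members past the threshold in bone was 0 with edgeR, without mitochondrial genes and Gm42418, with the replicate block and among the 27 members with no same-name pseudogene, 2 with DESeq2 (18 of all genes), 17 with sample quality weights (589 of all genes), 0 to 12 when 1 library was left out (12 without Fgfr2+/+ bone replicate 3, 91 of 11226 genes) and 28 in 5 bone libraries without that library (1370 of 11992 genes in either direction), the last chosen after seeing the data. In MC it was 3 with edgeR, 9 with DESeq2 and 0 to 2 when 1 library was left out (2 without Fgfr2+/+ MC replicate 2, 138 of 11363 genes). The member median in bone was -0.05 with the loess on gene length and -0.36 to -0.13 when 1 library was left out. That in MC lay between -0.17 and 0.03 when 1 library was left out, above 0 (0.0322) without Fgfr2+/+ MC replicate 1, and that in CC was 0.0164 with the loess on gene length. The differences of genotype effects gave 1 member each with DESeq2, 1 for bone minus CC with quality weights (13 of all genes), and 0 to 1 when 1 library was left out. Among members with no same-name pseudogene the counts higher in bone against MC, bone against CC and CC against MC were 22, 18 and 14 of 27 (all genes 18.1%, 19.4% and 22.9%), and the median share of counts per library was 0.373% for these and 0.955% for all members, and 1.499% for all members without mitochondrial genes and Gm42418. The cause of these changes was not tested, and some of these fits also held fewer members or libraries. Deviations of libraries with the same number in the genotypes correlated by -0.124 to 0.214 in bone, -0.134 to -0.037 in MC and 0.041 to 0.267 in CC, so the numbers were not taken to pair the embryos.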
